A study of Rattus norvegicus with 18 samples.

Results

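The amino acid transporter families are membrane carriers that move amino acids, and some related solutes, into and out of cells. They were taken here as all genes whose only symbol on the array begins with Slc1a, Slc3a, Slc6a, Slc7a, Slc36a, Slc38a or Slc43a. The rule found 72 probe sets of 53 genes, out of 20826 probe sets of 14217 genes with a single symbol. It also took in Slc7a6os, a gene named for lying opposite Slc7a6, which does not encode a transporter but is included in the counts below. Their RNA was measured in 9 distal and 9 proximal scrapings of colonic mucosa on Affymetrix rat arrays. Each of 9 male Sprague Dawley rats, numbered 1 to 8 and 10, gave 1 array of each region. The animals were fed a modified form of the AIN-93G diet for 10 days, were injected under the skin with azoxymethane (AOM), a colon carcinogen that alkylates DNA, at 15 mg per kg, and were killed 6 h later. Both regions therefore carry the same treatment, and distal can be set against proximal colon but not treated against untreated rats. The study allocated its rats to 2 groups that the labels used here do not identify.

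Amino acid carriers differ in what they carry, in what drives them and in the face of the epithelial cell they occupy. The Slc7 light chains pair with a heavy chain, Slc3a1 or Slc3a2, that brings them to the membrane, and mostly exchange 1 amino acid for another. Slc1, Slc6 and most Slc38 carriers use the sodium gradient to load the cell, Slc36 carriers use protons, and Slc43 carriers let large neutral amino acids pass down their gradient. In the colon such carriers serve the nutrition of the epithelium itself as well as uptake from the lumen.

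Signals are given as log2(signal + 16) after quantile normalization, and a difference is distal minus proximal on that scale, so a positive one means a higher signal in distal colon. A gene passed when its limma adjusted p over all tested probe sets was below 0.05. The fit did not pair the arrays by rat, so each SE and adjusted p compares the regions as unpaired groups. Differences within rats and counts of rats are given beside them, and rat as a block was run as an alternative. Where a gene had several probe sets, the one of highest mean signal stood for it. Probe sets with a mean log2 signal below 5.54, which are the lowest 30%, were not tested. Of the 53 genes, 35 were above this level and 18 were below it. A scraping holds several cell types, so fewer cells of a type and less RNA per cell cannot be told apart. The trimmed mean of the deposited signals ran from 210.3 to 341.2 in distal and from 257.5 to 339.7 in proximal arrays. Epithelial markers (11 of 11 tested) had a mean log2 signal of 12.44 to 12.59 in distal and 12.29 to 12.67 in proximal arrays. Of these markers 0 passed toward distal colon and 2 toward proximal colon, and their score was lower in distal colon in 7 of 9 rats. Smooth muscle markers stood apart in 3 arrays, at 12.12 in the proximal array of rat 3 and at 9.90 and 9.78 in the distal arrays of rats 3 and 7.

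Of the 35 tested genes, 6 were higher in distal colon and 4 in proximal colon. That is 28.6% called, against 30.8 percent of all 11407 genes tested. By direction, 16.2 percent of all genes were higher in distal and 14.5 percent in proximal colon, so the families as a whole had calls at about the rate of the array. Counted by probe set, 13 of 45 passed (28.9%), against 26.5 percent of all probe sets. Their median difference by gene was -0.03, against 0.01 over all genes. Among 195 other solute carrier genes 78 (40.0%) passed, 31 higher in distal and 47 in proximal colon. At least 1.5-fold differences were seen in 5 of the members that passed, Slc6a14 and Slc43a1 toward distal colon and Slc6a6, Slc6a20a and Slc38a2 toward proximal colon, against 8.63 percent of all genes that passed at that size. The 2 regions did not overlap for 2 members, Slc6a6 and Slc38a2 (6.89 percent of all genes), and 8 members had the same direction in 9 of 9 rats (21.5 percent of all genes). With the deposited scaling of the arrays kept, 2 members were higher in distal colon and 3 in proximal colon, against 3.94 and 13.6 percent of all genes.

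**Figure D1:**
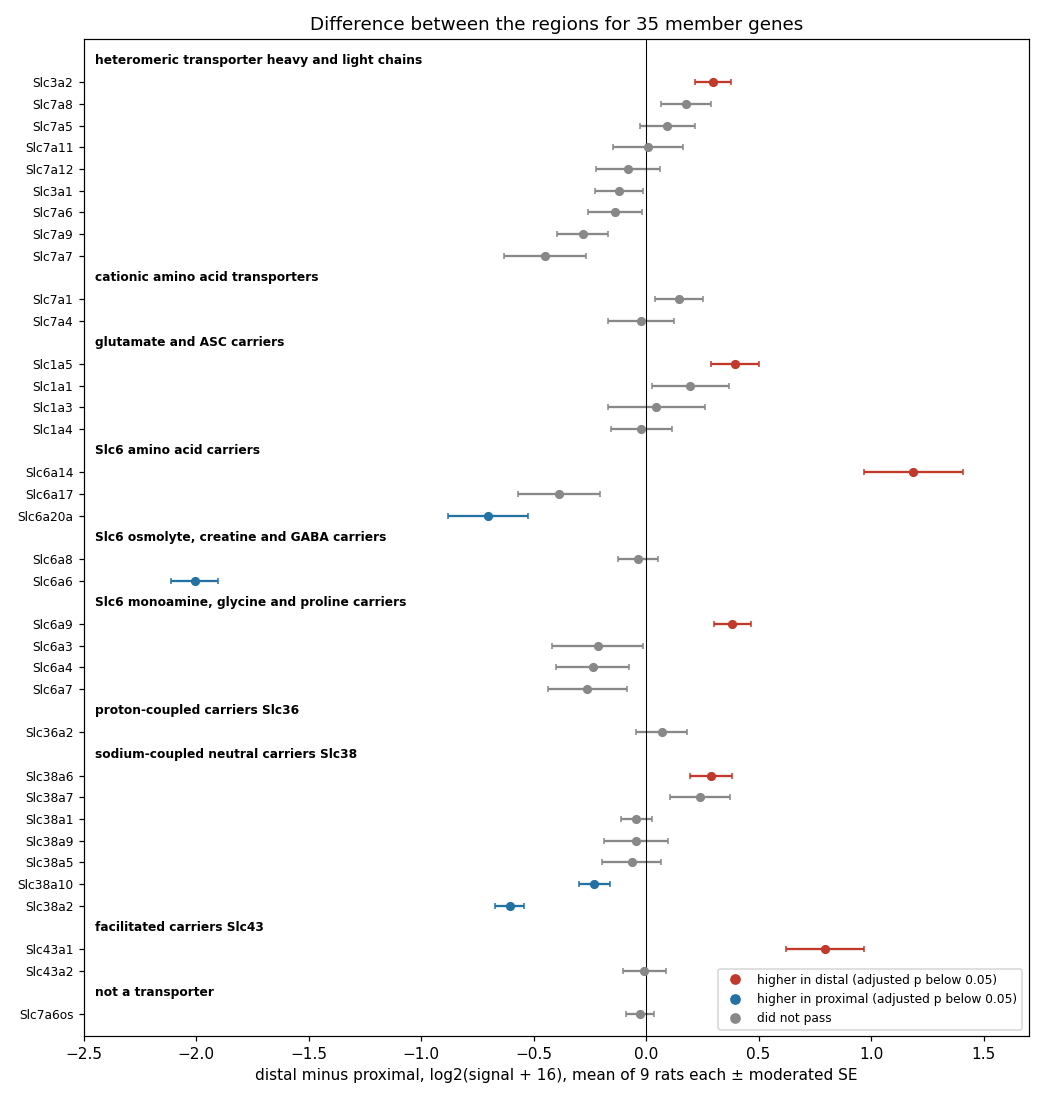
Each point is the difference between distal and proximal colon of 1 gene in log2(signal + 16), with limma's moderated standard error, for the 35 tested genes grouped by transporter type (n = 9 arrays per region). Red points (6 genes, higher in distal colon) and blue points (4 genes, higher in proximal colon) passed, and grey points did not; Slc6a6 at -2.01 and Slc6a14 at 1.19 lie farthest out.

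The heteromeric transporters, made of a heavy and a light chain, held 1 gene that passed among 9 tested. Slc3a2, the heavy chain shared by most light chains of the basolateral membrane, had log2 signals of 9.90, 9.96 and 10.39 in distal colon, against 9.56, 9.70 and 10.16 in proximal colon (lowest, median and highest of 9 arrays). It was 1.23-fold higher in distal colon (difference 0.30 ± 0.08 SE, limma adjusted p = 0.00990) in 9 of 9 rats, and only the proximal array of rat 8 exceeded the lowest distal one. With the deposited scaling its difference was 0.20 and it did not pass (adjusted p = 0.422). None of the 5 tested light chains known to partner Slc3a2 (Slc7a5, Slc7a6, Slc7a7, Slc7a8 and Slc7a11) passed. Slc7a5, the carrier of large neutral amino acids such as leucine, had 6.96, 7.33 and 7.71 in distal and 6.68, 7.32 and 7.53 in proximal colon (difference 0.09, adjusted p = 0.623). That small difference turned to -0.03 with the deposited scaling. Slc7a8, another carrier of neutral amino acids, had a difference of 0.18, Slc7a6, an exchanger of cationic for neutral amino acids, one of -0.14, and Slc7a11, the cystine-glutamate exchanger, one of 0.01.

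Slc7a7, the light chain that releases cationic amino acids across the basolateral membrane, came closer to the threshold in the other direction. Its log2 signals were 5.65, 6.40 and 7.04 in distal and 6.33, 6.65 and 7.25 in proximal colon, lower in distal colon in 8 of 9 rats (difference -0.45 ± 0.18 SE, adjusted p = 0.0733). Rats 1 and 6 had the widest differences (-1.20 and -1.49), and in the other rats these lay between -0.59 and 0.03. It passed without rat 3 (adjusted p = 0.0361) and when the 3 arrays with high smooth muscle markers were left out (difference -0.55, adjusted p = 0.0203). Slc7a7 did not pass with rat as a block in limma (adjusted p = 0.0523) or with the deposited scaling (0.0514). With 1 rat left out in turn, its adjusted p reached 0.223.

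Another pair takes up cystine and cationic amino acids at the brush border. Slc3a1, its heavy chain, had 6.18, 6.52 and 6.80 in distal and 6.35, 6.63 and 6.96 in proximal colon (difference -0.12 ± 0.11 SE, adjusted p = 0.437). Slc7a9, its light chain, had 5.69, 5.99 and 6.27 in distal and 6.00, 6.29 and 6.53 in proximal colon (difference -0.28 ± 0.11 SE, adjusted p = 0.0704). Both had lower signals in distal colon in 7 of 9 rats, and neither passed. Slc7a9 did pass without rat 7 (adjusted p = 0.0439) and in limma without the intensity trend (adjusted p = 0.0458). It did not with rat as a block (adjusted p = 0.0771) or with the deposited scaling (0.0536). With 1 rat left out in turn, the adjusted p of Slc7a9 reached 0.152. Slc7a12 had a difference of -0.08.

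Cationic amino acid carriers of the Slc7 family work without a heavy chain, and 2 of 5 were tested. Slc7a1, the main arginine and lysine carrier of most cells, has 2 tested probe sets that gave different calls. The stronger one had 8.80, 9.02 and 9.67 in distal and 8.72, 8.97 and 9.24 in proximal colon (difference 0.15 ± 0.11 SE, adjusted p = 0.339). The weaker one had 8.79, 9.02 and 9.46 in distal and 8.47, 8.80 and 8.87 in proximal colon, was higher in distal colon in 9 of 9 rats and passed (difference 0.30 ± 0.08 SE, adjusted p = 0.00963). The deposited scaling gave that probe set an adjusted p of 0.207, so the call for Slc7a1 is uncertain. Slc7a4 had a difference of -0.02.

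Among the Slc1 carriers, 1 of 4 tested genes passed. Slc1a5, which exchanges glutamine and other small neutral amino acids, had 9.02, 9.46 and 9.69 in distal and 8.66, 9.17 and 9.44 in proximal colon. It was 1.31-fold higher in distal colon (difference 0.39 ± 0.11 SE, adjusted p = 0.00974) in 8 of 9 rats, with rat 10 as the exception. The proximal arrays of rats 3 and 6 were the lowest of the 9 (8.66 and 8.70), and these rats had the widest differences (0.80 and 0.96). With both rats left out, an alternative chosen after seeing the data, the difference was 0.26 (adjusted p = 0.0782). With the deposited scaling it was 0.30 (adjusted p = 0.170). Slc1a5 did pass with rat as a block in limma (adjusted p = 0.00969) and with any 1 rat left out (at most 0.0381). It also passed without the proximal arrays of rats 3 and 6 alone. Slc1a4, its close relative, had 6.98, 7.46 and 7.98 in distal and 7.20, 7.31 and 7.94 in proximal colon (difference -0.02, adjusted p = 0.928). Slc1a1, the epithelial carrier of glutamate and aspartate, has 2 probe sets that pointed in opposite directions, with differences of 0.20 (adjusted p = 0.440) and -0.20 (adjusted p = 0.355). Slc1a3, a glutamate carrier best known from glia, had 4.92, 6.02 and 6.69 in distal and 5.21, 5.96 and 6.46 in proximal colon (difference 0.05).

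The Slc6 family held the largest difference in each direction. Slc6a14 is a carrier of broad range for neutral and cationic amino acids, driven by sodium and chloride, and is known from the luminal face of the lower gut and the lung. Its log2 signals were 9.86, 10.50 and 11.14 in distal colon, against 8.56, 9.29 and 10.10 in proximal colon. The ranges overlapped, since the proximal arrays of rats 4, 8 and 10 exceeded the lowest distal array, but every rat was higher in distal colon, by 0.52 in rat 4 to 1.75 in rat 5. It was 2.28-fold higher in distal colon (difference 1.19 ± 0.22 SE, adjusted p = 0.000443). The lowest proximal signals were those of rats 3 and 6, and without these 2 arrays the difference was 0.99 (adjusted p = 0.00160). The 250 bases before its RefSeq start site are shown because it differed most toward distal colon; they lie on assembly GRCr8 at chrX:117144676-117144925, plus strand, and held no match to the 3 motifs searched further on.
Slc6a14: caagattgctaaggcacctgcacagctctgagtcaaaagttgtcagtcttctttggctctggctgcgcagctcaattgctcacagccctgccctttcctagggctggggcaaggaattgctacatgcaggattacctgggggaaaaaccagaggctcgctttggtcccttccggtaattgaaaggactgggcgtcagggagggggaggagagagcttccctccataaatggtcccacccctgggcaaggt

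Slc6a6 imports taurine and beta-alanine, and taurine serves cells as an osmolyte. It was the member with the largest difference toward proximal colon. Its stronger probe set had 8.42, 8.50 and 9.08 in distal colon, against 10.39, 10.59 and 10.95 in proximal colon. The regions did not overlap, and the differences within rats were even, from -2.34 to -1.68. Slc6a6 was 4.02-fold higher in proximal colon (difference -2.01 ± 0.10 SE, adjusted p = 5.01e-11). The second probe set had 6.73, 7.02 and 7.54 in distal and 7.86, 8.22 and 8.80 in proximal colon. It gave a smaller difference in the same 9 of 9 rats (-1.18 ± 0.13 SE, 2.26-fold higher in proximal colon, adjusted p = 1.98e-06), with rat 3 at -0.32. The bases before its start site are shown for the same reason as those of Slc6a14 (GRCr8, chr4:125752252-125752501, plus strand), with a match to the core of the tonicity element on the reverse strand and a TATA box in capitals.
Slc6a6: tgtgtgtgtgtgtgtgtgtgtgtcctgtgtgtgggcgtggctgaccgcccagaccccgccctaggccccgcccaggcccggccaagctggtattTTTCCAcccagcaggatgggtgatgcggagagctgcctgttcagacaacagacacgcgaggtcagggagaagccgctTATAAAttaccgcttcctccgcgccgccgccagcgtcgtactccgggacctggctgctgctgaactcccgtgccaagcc

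Slc6a20a carries proline and other imino acids with sodium and chloride. Its log2 signals were 7.04, 7.90 and 8.48 in distal and 8.07, 8.44 and 9.22 in proximal colon. It was 1.63-fold higher in proximal colon (difference -0.70 ± 0.18 SE, adjusted p = 0.00616) in 9 of 9 rats, although rat 1 differed by only -0.06, and the ranges overlapped. The second probe set passed in the same direction (difference -0.63 ± 0.15 SE, adjusted p = 0.00476) in 8 of 9 rats, and there rat 1 went the other way (0.26). Slc6a17, a carrier of neutral amino acids known from synaptic vesicles, had 5.00, 5.55 and 6.21 in distal and 5.36, 5.99 and 6.64 in proximal colon (difference -0.39 ± 0.18 SE, adjusted p = 0.129). It had the highest signal in the proximal array of rat 3 (6.64), where neuronal and glial markers (6 of 12 tested) were also highest, at 7.79 against 5.53 to 6.31 in the other proximal arrays and 5.41 to 6.22 in the distal ones. The part of those cells in the Slc6a17 signal was not tested. The other probe sets of Slc6a17 lay below the filter. Among them, a probe set with 4.69, 5.31 and 5.61 in distal and 4.19, 4.76 and 5.38 in proximal colon went the other way, in 7 of 9 rats. Another had 9.17 in the proximal array of rat 3, against 4.05 to 4.50 in the other proximal arrays.

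Of the Slc6 carriers of transmitters, osmolytes and creatine besides Slc6a6, 1 passed. Slc6a9, a glycine carrier, had 7.96, 8.21 and 8.35 in distal and 7.50, 7.81 and 7.98 in proximal colon for its strongest probe set. It was 1.30-fold higher in distal colon (difference 0.38 ± 0.08 SE, adjusted p = 0.00173) in 9 of 9 rats, and the ranges overlapped by the proximal array of rat 3 alone. Its 2 weaker probe sets did not pass and differed in sign (0.26 and -0.18), the mean of the 3 did not pass (difference 0.15, adjusted p = 0.348), and neither did the strongest one with the deposited scaling (adjusted p = 0.0921). Slc6a8, the creatine carrier, had 11.82, 12.23 and 12.37 in distal and 11.80, 12.25 and 12.47 in proximal colon (difference -0.04 ± 0.09 SE, adjusted p = 0.794). Slc6a4, the serotonin carrier that enterocytes use to clear serotonin released by enteroendocrine cells, had 7.73, 8.39 and 8.71 in distal and 7.79, 8.69 and 9.15 in proximal colon. Its difference of -0.24 ± 0.16 SE did not pass (adjusted p = 0.309), with lower distal signals in 8 of 9 rats and rat 3 as the exception (0.59). Slc6a7, a brain proline carrier, and Slc6a3, the dopamine carrier, had differences of -0.26 and -0.21 and did not pass.

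Enteroendocrine and goblet cell markers also differed between the regions. The mean signal of the enteroendocrine list (6 of 10 tested, 0 higher in distal and 4 in proximal colon) was 6.56 to 7.20 in distal and 7.87 to 8.84 in proximal arrays. That of the goblet list (8 of 8 tested, 1 higher in distal and 3 in proximal colon) was 11.30 to 11.83 in distal and 11.99 to 12.44 in proximal arrays. The median marker difference was -1.85 in the enteroendocrine list but only -0.04 in the goblet list. Both scores were lower in distal colon in 9 of 9 rats, as were Slc6a6, Slc6a20a and Slc38a2, and the part of these cell types in those genes was not tested. Markers of immune cells (7 of 10 tested, 1 higher in distal and 0 in proximal colon) scored 7.63 to 9.29 in distal and 7.06 to 9.33 in proximal arrays. Fibroblast markers (8 of 8 tested) scored 6.42, 7.17 and 10.77 in distal and 6.15, 8.41 and 11.28 in proximal arrays (lowest, median and highest). Their score was lower in distal colon in 7 of 9 rats, with a median marker difference of -0.63, and their part in the member genes that were lower in distal colon was not tested either. None of the 8 fibroblast, 5 endothelial or 12 smooth muscle markers tested passed in limma.

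**Figure D2:**
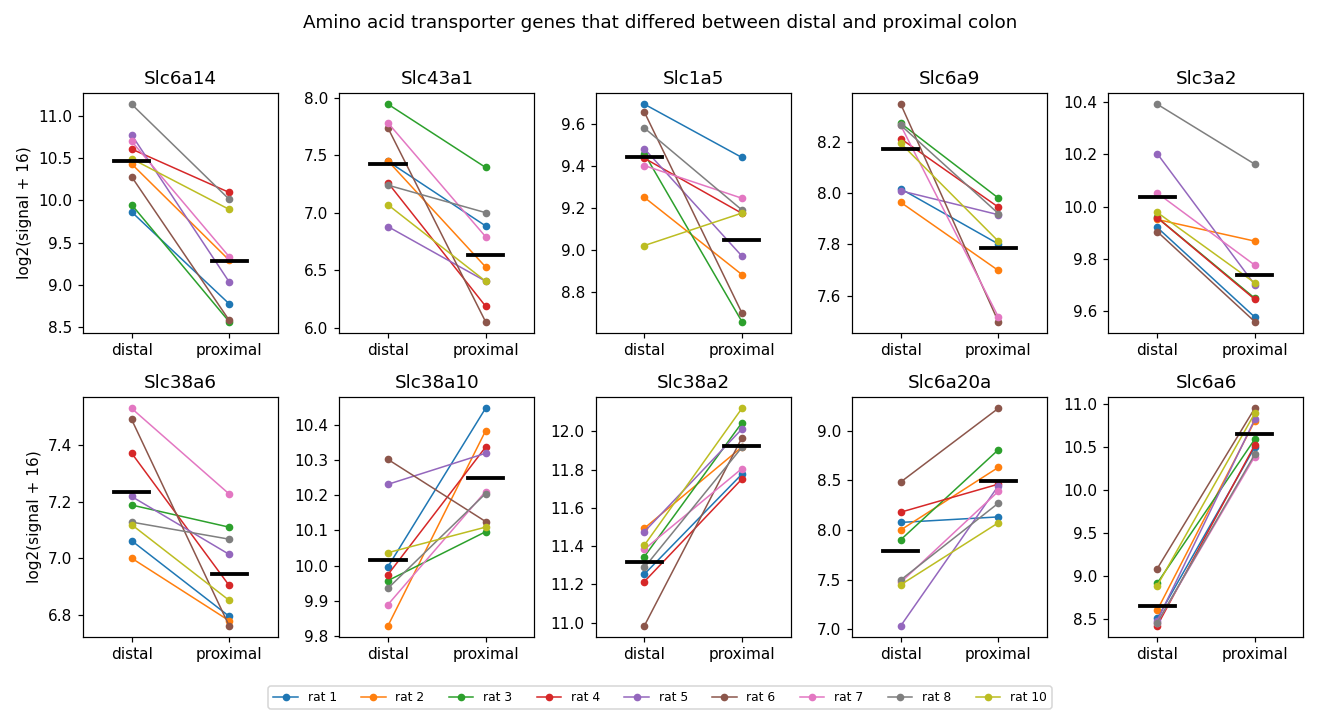
Log2(signal + 16) of the 10 genes that passed, in distal colon (left) and proximal colon (right) of each panel; points are arrays, lines join the 2 arrays of a rat and black bars are means of 9 rats. The y axes do not start at 0 and differ between panels. Slc6a6 and Slc38a2 have no overlap between the regions, while a line runs against the others for rat 10 in Slc1a5 and for rat 6 in Slc38a10.

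The Slc38 carriers take up or release glutamine and other neutral amino acids, and 3 of 7 tested genes passed. Slc38a2, a carrier of small neutral amino acids that many cells raise when amino acids are short, had 10.98, 11.35 and 11.49 in distal colon, against 11.75, 11.92 and 12.12 in proximal colon. The ranges did not overlap, and Slc38a2 was 1.52-fold higher in proximal colon (difference -0.61 ± 0.07 SE, adjusted p = 8.77e-07) in 9 of 9 rats, with differences within rats of -0.98 to -0.42. Slc38a10, a relative found inside cells, was also higher in proximal colon, with 9.83, 9.97 and 10.30 in distal and 10.10, 10.21 and 10.45 in proximal colon. Its difference was small (-0.23 ± 0.07 SE, adjusted p = 0.0162, 8 of 9 rats) and was above the threshold with the deposited scaling (adjusted p = 0.0617), with arrays centred on their medians (0.188), or without rat 1 (0.0502) or rat 2 (0.0600).

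Slc38a6 was the one Slc38 gene higher in distal colon. It had 7.00, 7.19 and 7.53 in distal and 6.76, 6.90 and 7.23 in proximal colon (difference 0.29 ± 0.09 SE, adjusted p = 0.0264). All 9 rats had the higher signal in distal colon, by 0.06 in rat 8 to 0.73 in rat 6. The call was lost without rat 4 (adjusted p = 0.0701), without rat 6 (0.0895) and with the deposited scaling (0.463, difference 0.15). It was also lost without rats 3 and 6 (0.0776), an alternative chosen after seeing the data. Slc38a1, a sodium-driven glutamine carrier, had 10.20, 10.30 and 10.58 in distal and 10.03, 10.42 and 10.55 in proximal colon for its strongest probe set (difference -0.04, adjusted p = 0.679). Its 2 weaker probe sets gave 0.14 and 0.28, and none of the 3 passed. Slc38a9, which senses arginine at the lysosome, had 6.05, 6.47 and 6.99 in distal and 5.93, 6.52 and 6.94 in proximal colon (difference -0.05, adjusted p = 0.846). Slc38a7, a lysosomal exporter of glutamine, had a difference of 0.24 (adjusted p = 0.201) and Slc38a5 one of -0.07 (adjusted p = 0.762).

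Of the Slc43 carriers, Slc43a1 passed and Slc43a2 did not. Slc43a1, which lets branched-chain and aromatic amino acids through by facilitated diffusion, had 6.88, 7.45 and 7.94 in distal and 6.05, 6.53 and 7.39 in proximal colon. It was 1.73-fold higher in distal colon (difference 0.79 ± 0.17 SE, adjusted p = 0.00201) in 9 of 9 rats, by 0.24 in rat 8 to 1.68 in rat 6. The ranges overlapped, since the proximal array of rat 3 (7.39) exceeded 4 distal arrays of other rats. The proximal arrays of rats 1 (6.89) and 8 (7.00) also exceeded the lowest distal array, that of rat 5 (6.88). Slc43a2, of the same substrate range, had 7.23, 7.35 and 7.48 in distal and 7.03, 7.37 and 7.85 in proximal colon (difference -0.01 ± 0.10 SE, adjusted p = 0.963). Its second probe set had a difference of -0.04. Slc36a2, a proton-coupled carrier of small amino acids, had a difference of 0.07 (adjusted p = 0.703), and Slc7a6os one of -0.03 (adjusted p = 0.778).

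**Figure D3:**
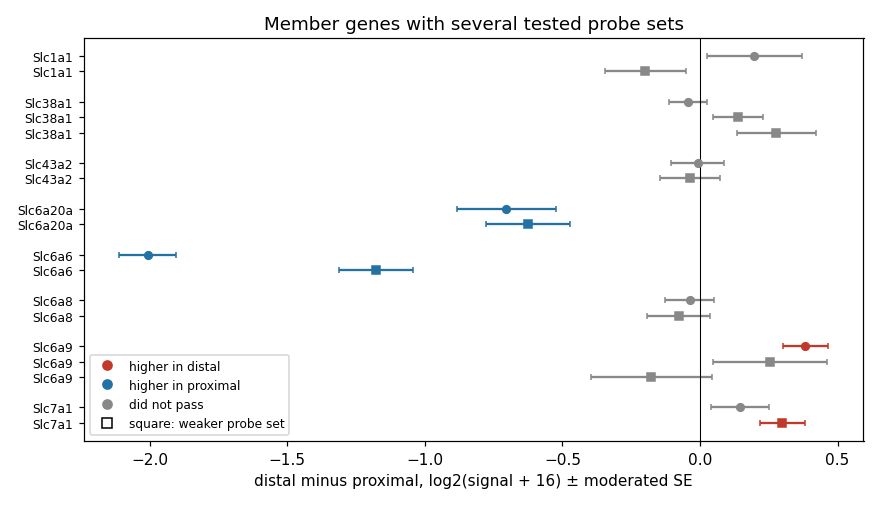
Differences between distal and proximal colon in log2(signal + 16), with moderated standard errors, for the 8 member genes with more than 1 tested probe set; circles are the probe set with the highest mean, squares the others. The probe sets of Slc6a6 and of Slc6a20a passed in the same direction, those of Slc7a1 and Slc6a9 differ in call, and those of Slc1a1 differ in sign.

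The 18 genes below the filter had mean log2 signals of 4.30 to 5.53, and their single arrays ran from 4.05 to 7.30. They were Slc1a2 and Slc1a6, Slc6a2, Slc6a5, Slc6a11, Slc6a13, Slc6a15, Slc6a18 and Slc6a20b, Slc7a2, Slc7a3, Slc7a10, Slc7a13 and Slc7a14, Slc36a1 and Slc36a3, and Slc38a3 and Slc38a4. Several of these are known from brain, kidney or liver. A low signal on an array does not show that a gene is off. Slc36a1, the proton-coupled carrier of small amino acids in intestine, was uneven. It had 7.30 in the distal array of rat 7 and 6.77 in that of rat 4, against 4.54 to 5.51 in the other distal arrays and 4.54 to 5.07 in proximal arrays. Slc36a1 was higher in distal colon in 9 of 9 rats, by 0.005 in rat 3 to 2.66 in rat 7. With no filter its difference was 0.74 ± 0.29 SE and did not pass (adjusted p = 0.0804). Slc6a13, a carrier of GABA and taurine, had 4.38, 4.59 and 5.22 in distal and 4.23, 4.35 and 4.50 in proximal colon. With no filter it passed (difference 0.38, adjusted p = 0.0242), in 8 of 9 rats, at signals close to the pseudocount. Slc7a14 had 6.18 in the proximal array of rat 3 and 4.11 to 4.39 in the other proximal arrays, and Slc38a4 had its highest signal (6.94) in that array too.

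The call of 5 of the 10 genes depended on how the arrays were scaled. Slc6a14, Slc43a1, Slc6a6, Slc6a20a and Slc38a2 passed both after quantile normalization and with the deposited scaling. Slc1a5, Slc3a2, Slc6a9, Slc38a6 and Slc38a10 passed after quantile normalization but not with the deposited scaling. With arrays centred on their medians, the first 4 of these passed as well (adjusted p from 0.000775 for Slc6a9 to 0.0378 for Slc3a2), and Slc38a10 did not. The deposited scaling put the median of all genes at -0.10, against 0.01 after quantile normalization, and it moved all 35 genes toward proximal colon. Calls split 6 to 4 in favour of distal colon in one case and 2 to 3 in the other.

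**Figure D4:**
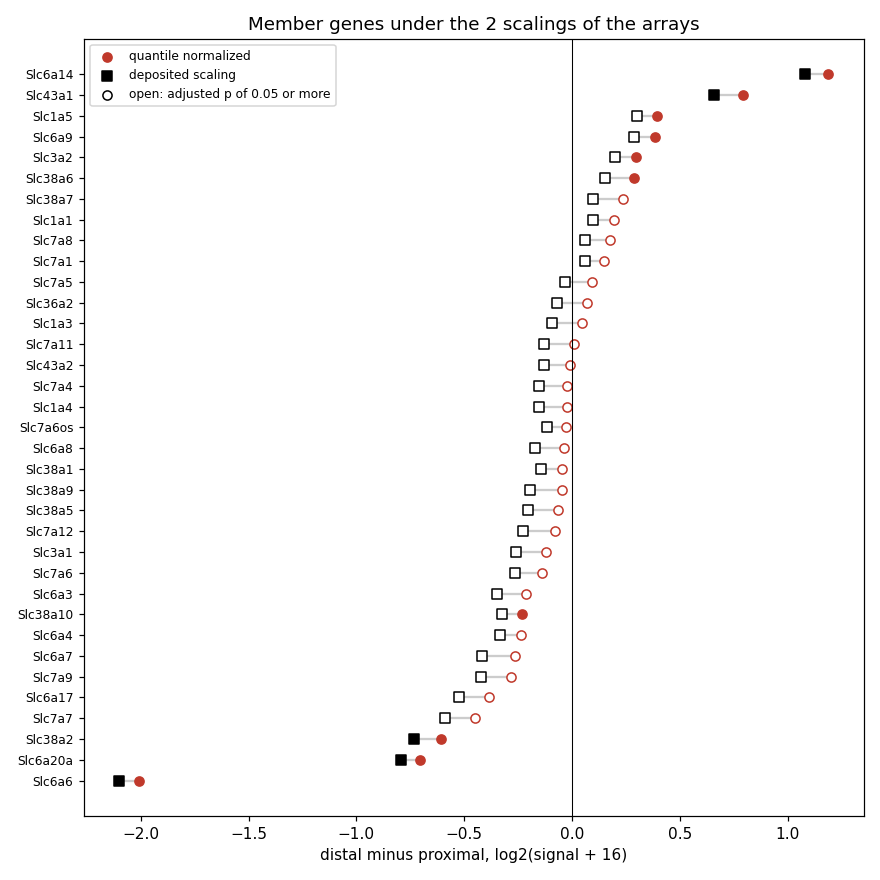
Difference between distal and proximal colon in log2(signal + 16) for the 35 tested genes after quantile normalization (red circles) and with the deposited scaling (black squares); filled symbols passed an adjusted p below 0.05. All squares lie to the left of their circles, and 5 genes have both symbols filled.

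Cells also sense their amino acid supply, and several of these carriers are known targets of the response to a shortage. In that response the kinase Eif2ak4 acts through the transcription factor Atf4, which binds the C/EBP-ATF response element. The genes of the response were taken from a list that holds none of the transporters. The list was chosen with earlier results of these data known, so its share of calls is not an independent result. Of 29 tested, 11 had higher signals in distal colon and 6 in proximal colon (58.6%, against 30.8 percent of all genes), with a median difference of 0.17 against 0.01 over all genes. Toward distal colon the largest differences were those of Gars1, which charges tRNA with glycine (1.52-fold, adjusted p = 0.000553), Asns, asparagine synthetase (1.51-fold, adjusted p = 0.0166), Phgdh, the first enzyme of serine synthesis (1.51-fold, adjusted p = 1.27e-05), and Cebpb, a partner of Atf4 (1.37-fold, adjusted p = 0.0204). Atf4 itself was 1.21-fold higher in distal colon (adjusted p = 0.00353). Of these 5 only Phgdh passed with the deposited scaling, where the list had 1 gene higher in distal colon and 6 in proximal colon and a median of 0.07. That scaling put 3.94 percent of all genes higher in distal and 13.6 percent in proximal colon, with a median of -0.10. Toward proximal colon the largest differences after quantile normalization were those of Cth and Cbs, which turn homocysteine into cysteine (3.35-fold, adjusted p = 5.80e-08, and 1.87-fold, adjusted p = 2.48e-05), Nupr1, a stress-induced nuclear protein (2.12-fold, adjusted p = 1.87e-06), and Psat1, the second enzyme of serine synthesis (1.55-fold, adjusted p = 0.0105). Leaving out the proximal arrays of rats 3 and 6 gave 9 and 7. Leaving out the 3 arrays with high smooth muscle markers gave 10 and 7.

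**Figure D5:**
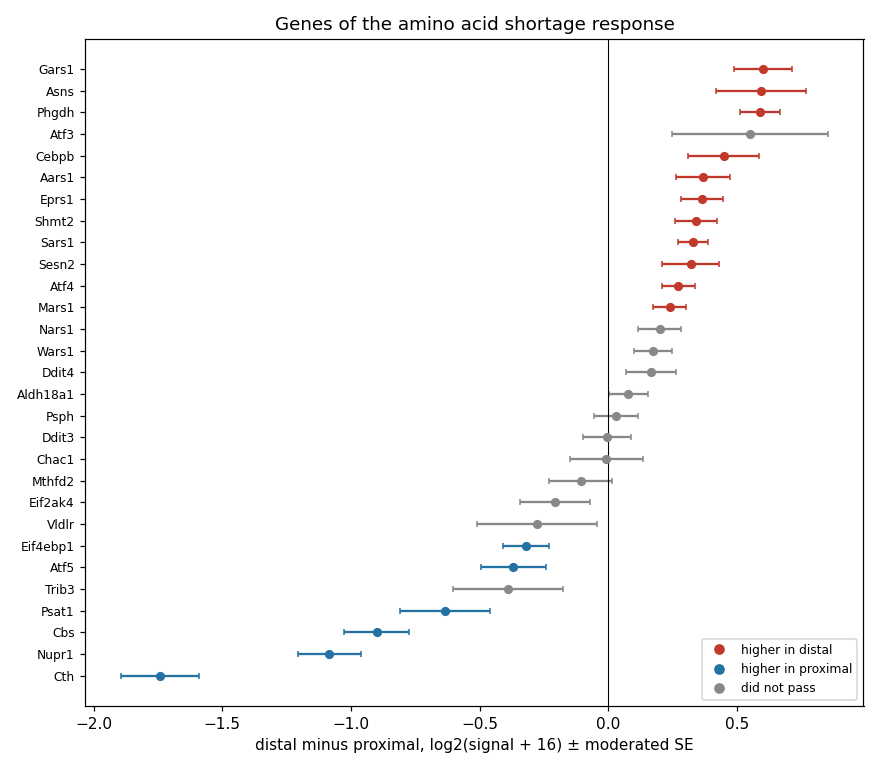
Difference between distal and proximal colon in log2(signal + 16), with moderated standard errors, for 29 genes of the amino acid shortage response (n = 9 arrays per region). The 11 red genes were higher in distal and the 6 blue ones in proximal colon after quantile normalization. With the deposited scaling these counts were 1 and 6, against 3.94 and 13.6 percent of all genes.

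The promoters of the transporters were searched for 3 motifs on both strands in the 250 bases before each RefSeq start site. These bases were available for 41 of the 53 genes, as 46 promoters. Transporters were counted by gene but the whole set by promoter, so the shares are not in the same unit. The C/EBP-ATF response element, TGATGNAA, was found in 3 of the 41 genes, and in 3.4 percent of all 33469 promoters. These 3 are shown with the match in capitals, from the 5′ end of the gene's strand on GRCr8. They lie at chr14:98761779-98761808, minus strand, at chr7:129681525-129681554, minus strand, and at chr12:11664447-11664476, plus strand.
Slc1a4: cgcctccagcgTTGCATCAtccagccagca
Slc38a1: gggggaaactcTGATGCAAccaaccagtcc
Slc7a1: cggcgcgcggcTGATGAAAccggctcggat
None of these 3 genes passed by its strongest probe set, as given above. The core of the tonicity element, TGGAAA, was found in 9 of the 41 genes and in 19.7 percent of all promoters. Of these genes, Slc6a6 was higher in proximal colon, and Slc43a1 and Slc38a6 were higher in distal colon. Slc1a4, Slc38a7, Slc43a2 and Slc7a8 did not pass, and Slc1a2 and Slc38a4 were below the filter. The part of the motif in these signals was not tested. The TATA box motif, TATAAA, was found in 5 of the 41 genes, among them Slc6a6 and Slc3a2, and in 12.9 percent of all promoters.

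Further lists set the transporters beside their partners and the fate of their substrates. Of 16 tested partners and carriers outside the families, 2 passed toward distal colon and 2 toward proximal colon (25.0%, below the 30.8 percent of all genes), with a median of -0.02; without the proximal arrays of rats 3 and 6 these were 3 and 1, and with the 3 arrays of high smooth muscle markers left out 1 and 1. Slc15a1, the peptide transporter, was 4.58-fold higher in distal colon (adjusted p = 0.000142) and Dpep1, a dipeptidase of the brush border, 19.3-fold higher in proximal colon (adjusted p = 4.52e-10). The others were Slc25a13 (1.16-fold higher in distal colon, adjusted p = 0.0474) and Arl6ip5 (1.10-fold higher in proximal colon, adjusted p = 0.0414), and neither passed with the deposited scaling. With rat as a block Arl6ip5 did not pass either (adjusted p = 0.0740), which left 2 and 1. Of 30 tested genes of amino acid sensing at the lysosome, 5 passed toward distal colon and 3 toward proximal colon (26.7%, below the 30.8 percent of all genes), with a median of 0.04. Without the proximal arrays of rats 3 and 6 these were 3 and 3, and with the 3 arrays of high smooth muscle markers left out 7 and 3. Rptor, the scaffold of the mTORC1 kinase complex (1.34-fold, adjusted p = 0.00591), and Rraga, a GTPase that recruits it (1.24-fold, adjusted p = 0.0265), were higher in distal colon. Rragd, a GTPase of the same family, was 1.65-fold higher in proximal colon (adjusted p = 0.000724). With the deposited scaling the counts were 0 and 3, against 3.94 and 13.6 percent of all genes.

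Of 33 tested genes that metabolize glutamine, arginine, branched-chain amino acids and their products, 7 passed toward distal colon and 9 toward proximal colon (48.5%, against 30.8 percent of all genes), with a median of -0.12 against 0.01 over all genes. Without the proximal arrays of rats 3 and 6 these counts were 5 and 8. This list too was chosen with earlier results of these data known, so its share of calls is not an independent result. Higher in proximal colon were Ass1, which makes argininosuccinate on the way to arginine (2.04-fold, adjusted p = 0.00693), Prodh, which oxidizes proline (1.64-fold, adjusted p = 0.0188), Glud1, glutamate dehydrogenase (1.46-fold, adjusted p = 1.83e-05), and Nags, which makes N-acetylglutamate (1.4-fold, adjusted p = 0.00345). For Ass1 the regions did not overlap, but its proximal signals were uneven (lowest 6.45, median 6.68, highest 9.01). Its differences within rats ran from -3.42 to -0.04. Higher in distal colon were Arg1, an arginase (1.64-fold, adjusted p = 0.000313), Gclc, which starts glutathione synthesis (1.4-fold, adjusted p = 0.0403), Got2, the mitochondrial aspartate aminotransferase (1.30-fold, adjusted p = 8.05e-05), and Srm, spermidine synthase (1.28-fold, adjusted p = 0.0149). With the deposited scaling 1 was higher in distal colon, Arg1, and 9 in proximal colon, against 3.94 and 13.6 percent of all genes.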

How the data were processed

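The authors deposited linear intensities, 1 per probe set and array, computed by MAS5 per the submitters' processing notes; neither its version nor a scaling target is given in the sources used here. Columns of no sample numbered 0. Array means differed, so log2(intensity + 16) of 31042 probe sets, with controls removed, was quantile normalized, which removes any overall shift between regions. The pseudocount understates folds of low genes. The lowest 30% by mean were left out and 21729 tested with limma 3.58.1 in R 4.3.3 (lmFit, eBayes with an intensity trend, 18 arrays, no block, two-sided), with Benjamini-Hochberg adjustment over all of them. The fit was also run on simulated data, drawn independently for each array with no effect of the rat. That run could not check the unpaired fit on arrays paired by rat. The number of arrays limits the precision. Symbols came from the array annotation; all 72 member probe sets matched a RefSeq gene (GRCr8) and 0 symbols changed. Promoters are RefSeq's, matched by gene ID. Python 3.11.15, numpy 2.4.6, pandas 2.3.3 and matplotlib 3.10.9 were used.

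Every member could be named; of other lists, up to 4 per direction that passed, those of largest difference, and Atf4, chosen after its value was seen. Members and lists were chosen with earlier results of these data known. The rat numbers pair the arrays since both arrays of a number came from 1 animal, per the labels. Deviations from region means of the arrays of a rat correlated at a median r of 0.226. The lowest was 0.000945 and the highest 0.569, and 6 of 9 exceeded 0.1. Between rats the median was -0.03. Of the 9 proximal arrays, 4 correlated best with the distal array of the same rat.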

Additional observations from a re-analysis of the deposited data

Results flagged for a closer look

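Each region's 9 arrays were searched for a highest or lowest value far from the rest in the 35 tested genes, 70 groups in all, of which chance flags about 1 in 20. It found 2. Slc7a11, the cystine-glutamate exchanger, had a log2 signal of 6.68 in the distal array of rat 2, against 5.99 to 6.23 in the other distal arrays. Slc6a3, the dopamine carrier, had 5.26 in the proximal array of rat 2, against 5.78 to 6.22 in the other proximal arrays. Both genes lie close to the filter level of 5.54, and neither passed between the regions.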

How the results depend on the processing

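The 6 calls toward distal colon became 2 with the deposited scaling, and numbered 4 to 7 under the other alternatives run (5 to 6 without 1 rat). Those toward proximal colon numbered 3 to 5 (3 to 5 without 1 rat). With rat as a block the counts were 6 and 4 and no call of the 35 genes changed. The count of 4 toward distal colon came with rats 3 and 6 left out whole, an alternative chosen after seeing the data. None of the 10 called genes changed direction under the alternatives run. Among genes that did not pass, the sign turned for 12 under some alternative; their differences as reported were largest for Slc1a1 (0.20) and Slc7a5 (0.09). With the deposited scaling the differences were -0.095 for Slc1a3, -0.128 for Slc7a11, -0.0327 for Slc7a5 and -0.0708 for Slc36a2. With arrays centred on medians they were 0.0235 for Slc7a6os and 0.0119 for Slc43a2. With the mean of probe sets they were -0.000781 for Slc1a1 and 0.124 for Slc38a1. Slc7a11 was at -0.00595 with a pseudocount of 64. Without the proximal arrays of rats 3 and 6, Slc7a11 was at -0.0805 and Slc7a5 at -0.0336. Without the 3 arrays of highest smooth muscle score, Slc7a11 was at -0.0777 and Slc7a4 at 0.0115. Without rats 3 and 6, Slc7a11 was at -0.0507, Slc7a5 at -0.0396 and Slc38a9 at 0.00202. With 1 rat left out in turn, differences ran from -0.0671 to 0.198 for Slc1a3, from -0.118 to 0.0354 for Slc1a4, from -0.00148 to 0.127 for Slc36a2, from -0.116 to 0.0586 for Slc38a9, from -0.0635 to 0.0538 for Slc43a2, from -0.0914 to 0.0119 for Slc6a8, from -0.0884 to 0.0928 for Slc7a11 and from -0.0991 to 0.0442 for Slc7a4. The causes were not tested.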
